A study of Mus musculus with 10 samples.

Results

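The promoters of the nuclear genes that encode the mitochondrial respiratory chain were examined for chromatin accessibility. They were taken as the peaks within 1000 bp of an annotated transcription start of a protein-coding gene whose symbol begins with Nduf, Uqcr or Atp5, is Sdha to Sdhd, or belongs to the Cox4 to Cox8 families. The rule gave 102 of 97385 peaks, at 87 of 93 gene symbols, and used no measured value. All 102 passed the filter on low counts, which left 97109 peaks to test. The other 17337 promoter peaks, within the same distance of another protein-coding start, served for comparison, and 17306 of them were tested.

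Regulatory T cells (Tregs), sorted as TCRb+CD4+Foxp3-YFP+ cells from the spleen or the lung of mice aged 10 days, were profiled by ATAC-seq, in which the Tn5 transposase cuts open chromatin. Controls carried Foxp3Cre with Pik3c3 +/+ or +/fl, and Vps34-deficient mice carried Foxp3Cre with Pik3c3 fl/fl. Every group thus had the Cre, which Foxp3 drives, and a control could lack 1 copy of Pik3c3, the gene of the lipid kinase Vps34. Spleen gave 2 control and 4 Vps34-deficient libraries, and lung gave 2 of each. The labels state neither sex nor that each library came from a separate mouse. Chromosome Y signal lay on both sides of 40 CPM in every group, so that no group came from a single mouse. The paper counts mice per group, but its spleen numbers for the genotypes are the other way round from the labels. Whether the 4 Vps34-deficient spleen libraries came from 4 mice is thus not settled by the sources used here.

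Electrons from NADH enter the respiratory chain at complex I and those from succinate at complex II. Complex III passes them by way of cytochrome c to complex IV, which reduces oxygen, and the proton gradient built on the way drives the ATP synthase, complex V. Nearly all of their subunits are encoded in the nucleus, and promoters of such genes are known for sites of NRF1, of the ETS factor GABP, of YY1 and of the estrogen-related receptors (ERR). Tregs are known to rely on oxidative phosphorylation. Grouped by gene symbol, the 102 peaks comprised 8 of the catalytic core of complex I, 35 of its accessory subunits, 11 of its assembly factors, 4 of complex II, 10 of complex III, 15 of complex IV and 19 of complex V. Every other Nduf gene, Ndufa4 and Ndufa4l2 among them, was counted with the accessory subunits, which does not settle the complex of each product.

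RefSeq (GRCm38.p6) gave promoter windows of 300 bases, from 250 before a start to 50 after it, for 76 of the 93 symbols. The window of Cox7b (chrX:106015450-106015749, + strand) is shown because its peak differed between tissues. The window of an inner start of Atp5j (chr16:84834927-84835226, - strand) is shown because its peak had the highest level, and the second peak of Atp5g2 (chr15:102671782-102672028, - strand) because it was the other peak called. Capitals mark any of the strings searched.
Cox7b: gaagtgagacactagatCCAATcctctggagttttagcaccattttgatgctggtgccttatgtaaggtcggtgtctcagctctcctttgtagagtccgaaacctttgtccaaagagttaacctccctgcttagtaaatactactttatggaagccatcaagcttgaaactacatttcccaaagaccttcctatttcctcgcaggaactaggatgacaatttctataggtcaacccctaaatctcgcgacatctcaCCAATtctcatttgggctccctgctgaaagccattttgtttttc
Atp5j: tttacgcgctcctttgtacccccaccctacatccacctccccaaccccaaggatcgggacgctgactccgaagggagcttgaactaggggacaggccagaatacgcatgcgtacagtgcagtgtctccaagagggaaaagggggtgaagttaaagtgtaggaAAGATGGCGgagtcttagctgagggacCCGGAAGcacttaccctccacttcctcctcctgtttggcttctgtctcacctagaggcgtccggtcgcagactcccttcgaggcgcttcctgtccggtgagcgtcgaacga
Atp5g2 second peak: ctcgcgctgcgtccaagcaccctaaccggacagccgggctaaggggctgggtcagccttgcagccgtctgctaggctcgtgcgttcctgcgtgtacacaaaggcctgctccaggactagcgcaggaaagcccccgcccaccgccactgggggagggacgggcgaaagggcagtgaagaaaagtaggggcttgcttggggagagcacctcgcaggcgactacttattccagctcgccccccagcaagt
The 8 strings, read on both strands, were GCATGCGC for NRF1, CCGGAAG for ETS, AAGATGGCG for YY1, GGGGCGGGG for SP/KLF, TGACGTCA for CRE, AAGGTCA for ERR, CACGTG for the E-box and CCAAT. None of them contains another. The Cox7b window held CCAAT alone, and the Atp5j window held the YY1 and the ETS string. The second peak of Atp5g2 held none, which says only that these letters are not in its 247 bases.

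To compare stretches of 1 length, 600 bases centred on each promoter peak were searched. The ERR string was in 25 of the 102 respiratory chain peaks (24.5%) and in 6.24% of other promoter peaks. The YY1 string was in 16 (15.7%) and in 3.45% of the others. The share was 12.7% against 4.78% for NRF1, 31.4% against 18.7% for ETS and 6.86% against 3.103% for CRE. It was lower than elsewhere for SP/KLF (16.7% against 25.04%), the E-box (10.8% against 14.5%) and CCAAT (40.2% against 46.998%). In the 300-base windows the ERR string was in 9.88% of the 81 respiratory chain windows and 4.06% of 21182 others, and the YY1 string in 9.88% and 1.803%. Against the 11640 other windows that lie in a peak, SP/KLF (16.05% against 23.9%) and the E-box (8.64% against 10.5%) were again less frequent, and CCAAT was more frequent (43.2% against 37.7%). Against all other windows, open or not, the shares of SP/KLF (15.3%), the E-box (7.83%) and CCAAT (38.2%) lay below those of the respiratory chain windows. A match describes letters and not a bound site, and no share was tested.

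Of the 27 ERR strings, 20 lay downstream of the start to which the peak was linked, 1 start for each peak, and the median position of all was 91 bp past it. In other promoter peaks 50.8% lay downstream, and the median position was 13 bp past the start. The 10 from the peaks with the highest level per length, among genes with a RefSeq window, are shown with the bases on each side.
Atp5e: cggcagcaggAAGGTCAggcctgagta
Ndufs6: cagccggcggAAGGTCAgcaccgccgc
Atp5c1: caaagagaacAAGGTCAcggtctgatc
Ndufs8: cagacttcatAAGGTCAgcggtgacac
Cox8a: ggaccagtccAAGGTCAgggagtcaag
Ndufb4: cctgagcctgAAGGTCAgactcgagag
Ndufa12: aaacttgcccAAGGTCAccgtgagggg
Sdha: ctttccggcgAAGGTCAcgaccccgag
Sdhd: tcgagggctcAAGGTCActctacaacc
Atp5k: ttccggcgcgAAGGTCAcggacaaaat
With the strand shown and the distance of the string from the start (positive is downstream), they were Atp5e at chr2:174464061-174464087 (+ strand, 31 bp), Ndufs6 at chr13:73328417-73328443 (+ strand, 25 bp), Atp5c1 at chr2:10080166-10080192 (- strand, -124 bp), Ndufs8 at chr19:3912619-3912645 (+ strand, 102 bp), Cox8a at chr19:7217538-7217564 (+ strand, 65 bp), Ndufb4 at chr16:37654407-37654433 (- strand, 33 bp), Ndufa12 at chr10:94199399-94199425 (- strand, 457 bp), Sdha at chr13:74350021-74350047 (- strand, 167 bp), Sdhd at chr9:50603797-50603823 (+ strand, 2 bp) and Atp5k at chr5:108434360-108434386 (- strand, 75 bp). YY1 strings lay downstream in 12 of 17 cases, and 11 read in the direction of the gene. Of the latter, the 5 from the peaks with the highest level per length, among genes with a RefSeq window, are shown.
Ndufaf8: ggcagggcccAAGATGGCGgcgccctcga
Atp5j: aagtgtaggaAAGATGGCGgagtcttagc
Atp5e: gccaccctccAAGATGGCGtcgccgtgga
Ndufs6: ggtcaccggcAAGATGGCGgcggtgctga
Uqcrc1: cggaagttagAAGATGGCGgcgtccgcag
They were Ndufaf8 at chr11:120098934-120098962 (+ strand, 20 bp), Atp5j at chr16:84835046-84835074 (- strand, 443 bp), Atp5e at chr2:174463866-174463894 (- strand, 225 bp), Ndufs6 at chr13:73328431-73328459 (- strand, 10 bp) and Uqcrc1 at chr9:108936706-108936734 (+ strand, 87 bp). The Atp5j string, counted from an outer start of the gene, lies upstream of the inner start whose window is shown. Atp5e, the epsilon subunit of the ATP synthase, and Ndufs6, an accessory subunit of complex I, appear in both sets.

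**Figure D1:**
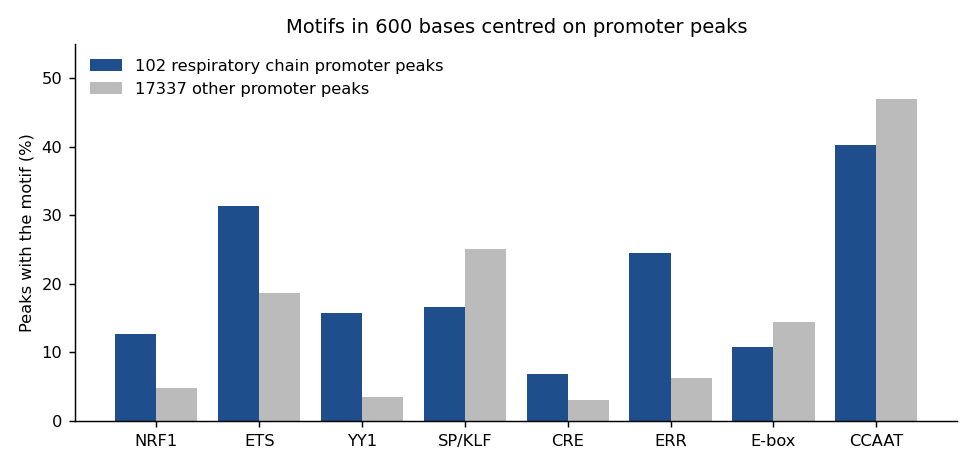
Share of promoter peaks, in percent, whose central 600 bases hold each string, for the 102 respiratory chain peaks and the 17337 other promoter peaks. The respiratory chain peaks have the higher share for NRF1, ETS, YY1, CRE and ERR and the lower share for SP/KLF, E-box and CCAAT. In the 300-base windows CCAAT turns direction. SP/KLF and the E-box turn there against all other windows but not against other windows that lie in a peak.

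Library totals ran from 9405823 to 22439699 counts, and a respiratory chain peak held 4 to 3226 counts in a library. In each library 91.5% to 96.5% of peaks held an even count, so the counts may exceed the number of independent fragments. Halved counts were among the alternatives. Promoter peaks took 50.8% to 53.1% of the counts in spleen libraries and 47.5% to 50.0% in lung libraries, and the part of this gap in the tissue results was not tested. The promoter of Pik3c3 held 53.9 to 66.8 CPM (counts scaled to the library total times its TMM factor) over the 10 libraries. A promoter that the deletion may leave in place does not check the genotype. All 7 Treg and CD4 T cell markers, Foxp3 and Il2ra among them, had promoter peaks, with a summed level of 260 to 307 CPM in spleen and 229 to 315 in lung. Of the markers of other cells, 2 of 5 for B cells (16.3 to 22.3 CPM in spleen and 18.1 to 23.7 in lung), 3 of 6 for myeloid cells (16.01 to 24.8 CPM in spleen and 16.8 to 28.6 in lung) and 3 of 5 for lung epithelium (27.9 to 34.3 CPM in spleen and 25.7 to 32.2 in lung) had a peak. The same was true of 3 of 5 for endothelium (29.99 to 36.1 CPM in spleen and 29.4 to 38.9 in lung) and 3 of 5 for CD8 T and NK cells (25.7 to 36.04 CPM in spleen and 24.1 to 34.7 in lung). Cd79a, Ms4a1, Csf1r, Lyz2, Cebpe, Sftpc, Sftpb, Tek, Emcn, Ncr1 and Klrb1c had no tested peak. Nkx2-1 and Cdh5, at a mean of 1.17 and 1.15 CPM, were called higher in lung (log2 fold change 1.26 and 2.04), while Epcam (-0.18), Cdh1 (-0.33), Kdr (-0.22) and Pecam1 (0.00) were not called. The median over the peaks of the epithelial list was -0.18 and over those of the endothelial list -0.11. A lesser peak of Pax5 was called higher in lung and a lesser peak of Cd3e lower. The summed myeloid level was 21.8 to 24.8 CPM in control and 16.01 to 21.4 in Vps34-deficient spleen, and 26.4 to 28.6 CPM in control and 16.8 to 18.7 in Vps34-deficient lung, without overlap in either tissue. Spi1, a myeloid transcription factor, had a log2 fold change with Vps34 loss over both tissues of -0.48 (edgeR Benjamini-Hochberg adjusted p = 0.025), short of the fold a call needed. For Cd14 it was -0.46 (edgeR Benjamini-Hochberg adjusted p = 0.0907). For Itgam it was -0.03, with 0.40 in spleen alone. The summed CD8 T and NK level was 24.1 to 28.4 CPM in control and 33.6 to 34.7 in Vps34-deficient lung, without overlap, while in spleen the genotypes overlapped. The summed B cell level was 16.3 to 17.0 CPM in control and 17.98 to 22.3 in Vps34-deficient spleen, without overlap. The summed lung epithelium level was 33.99 to 34.3 CPM in control and 27.9 to 32.1 in Vps34-deficient spleen, without overlap. Both overlapped in lung. The endothelial and the Treg and CD4 T cell levels overlapped in both tissues. The part of such cells in the results on tissue and on genotype was not tested.

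The median level of the respiratory chain promoters was 34.1 CPM per kb of peak, against 24.9 for other promoter peaks and 9.36 for all tested peaks, and 63 of 102 lay above the median of other promoter peaks. The quartiles overlapped widely, at 19.03 and 59.9 against 10.9 and 51.3 CPM per kb, and the difference was not tested. Their median width was 754.5 bp against 636 bp. The 85 peaks over a start had a median of 42.1 CPM per kb and the 17 beside a start 14.6. By complex the median was 58.4 for complex II, 44.6 for complex V, 39.7 for complex I assembly factors, 34.3 for complex III, 28.4 for the complex I core, 25.7 for its accessory subunits and 22.96 for complex IV. The groups overlapped, since complex II ran from 45.9 to 69.9 and complex IV from 5.81 to 147, and their order was not tested.

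The highest level per length was at Ndufa5, an accessory subunit of complex I (162 CPM per kb), at a peak shared with Asb15 (chr6:24527338-24528036). Cox7c, a small subunit of complex IV, followed with 147, Ndufab1, the mitochondrial acyl carrier protein, with 126, and Atp5b, the catalytic beta subunit of the ATP synthase, with 122. Among assembly factors, complex II and complex III the highest were Ndufaf8 (96.4), Sdhb, the iron-sulfur subunit of succinate dehydrogenase (69.9), and Uqcrc2, a core protein of complex III (75.8). The lowest of each group were the second peaks of Atp5l (3.87), Ndufv2 (6.73) and Uqcr11 (7.41), and the peaks of Cox4i2 (5.81), Ndufb8 (9.07), Ndufaf1 (9.24) and Sdhd (45.9). Without regard to length, Atp5j had the highest level, 135 CPM at a peak of 1506 bp (chr16:84834435-84835940), with 129 to 142 CPM over the 10 libraries. It shares this peak with Gabpa, which encodes the DNA-binding subunit of GABP.

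**Figure D2:**
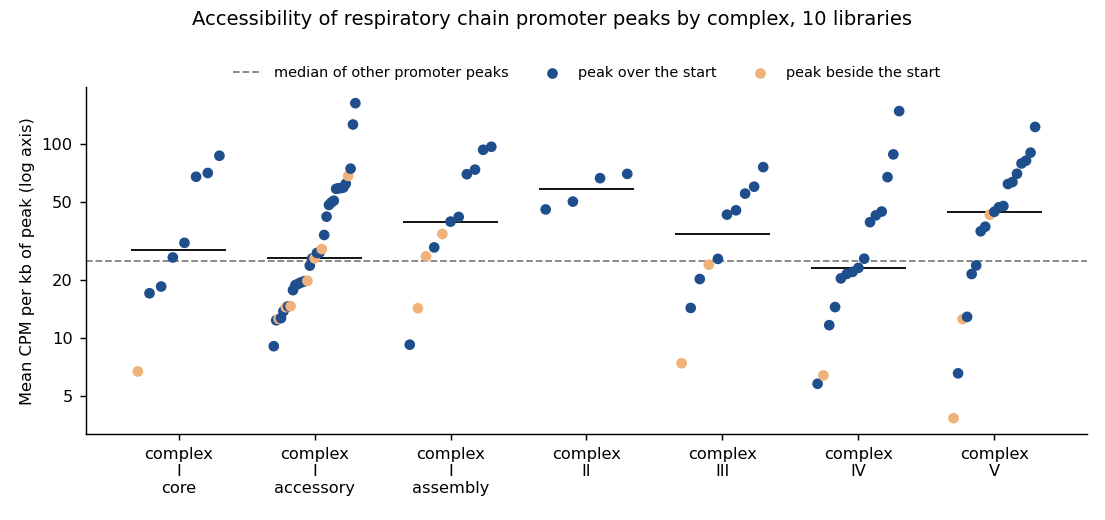
Mean level over 10 libraries in CPM per kb of peak (log axis) of each of the 102 respiratory chain peaks by complex, with black lines at group medians and a dashed line at the median of other promoter peaks (24.9). Peaks over a start (blue) reach 162 at Ndufa5, and peaks beside a start (orange) have the lower median, 14.6.

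Another protein-coding start lay within 1000 bp of 39 of the 102 peaks. These shared peaks had a median of 45.9 CPM per kb and the 63 peaks of a single gene 25.5. In 3 the partner was a gene of the mitochondrial ribosome or of protein import (Ndufb5 with Mrpl47, Ndufs6 with Mrpl36 and Sdhd with Timm8b). A change at a shared peak cannot be assigned to either gene. More than 1 peak met the rule at 15 genes. The peaks just inside the distance limit were the second peak of Ndufaf4 at 911 bp (7.11 CPM) and the peak of Ndufa4l2 at 909 bp (5.58 CPM). Just outside it were peaks of Atp5d at 1012 bp (13.7 CPM) and Ndufaf4 at 1055 bp (3.74 CPM).

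Whether loss of Vps34 altered these promoters was asked in spleen, in lung and over both tissues. No respiratory chain peak was called in any of the 3, where a call needed an edgeR quasi-likelihood Benjamini-Hochberg adjusted p below 0.05 over all tested peaks and an absolute log2 fold change above 0.5. Of all peaks 1.46% were called in spleen, 4.96% in lung and 7.57% over both tissues, and of other promoter peaks 0.416%, 2.39% and 2.27%. At an unadjusted p below 0.05 there were 4 in spleen, 13 in lung and 8 over both, and the Wald test of DESeq2 called 0, where it called 650 higher and 1142 lower of all peaks in spleen, 1489 and 3401 in lung and 4408 and 4233 over both. The same p was met by 13901, 19705 and 23644 of all 97109 peaks and by 1162, 2755 and 2686 of 17306 other promoter peaks, larger shares each time. The difference of the genotype effect between tissues was called by edgeR at 0 of 102 and at 0 of all peaks, with 1 of the 102 at an unadjusted p below 0.05. There DESeq2 called 0 of the 102, and 2 of all peaks higher and 22 lower. The average over tissues uses the same libraries as the separate comparisons. In bulk libraries, fewer cells with an open promoter and less opening per cell cannot be told apart.

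The median log2 fold change with Vps34 loss was -0.06 over both tissues, with 70 of 102 below 0, against -0.04 for other promoter peaks and 0.04 for all peaks. It was -0.05 in spleen (72 below 0) against -0.02 for other promoter peaks, and -0.05 in lung (62 below 0) against -0.06. The median in lung changed sign with scaling factors from promoter peaks (0.02), without spleen control replicate 2 (0.03) and with each lung library left out in turn (0.02 to 0.06). The median standard error of a peak was 0.10 over both tissues, 0.12 in spleen and 0.15 in lung. The 95% interval lay wholly between -0.5 and 0.5 for 85 of 102 peaks over both tissues, for 75 in spleen and for 57 in lung, and at the others a change of that size was not excluded at this depth. All 63 peaks with a mean of at least 20 CPM were among the 85.

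By complex, the median over both tissues was -0.10 for complex V, where 17 of 19 peaks lay below 0, and -0.08 for complex III (7 of 10). It was -0.05 for complex I assembly factors (9 of 11), -0.05 for the complex I core (6 of 8) and -0.04 for accessory subunits (19 of 35). It was -0.01 for complex II (3 of 4) and -0.01 for complex IV (9 of 15). The groups were not tested against each other.

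The share of all counts in the 102 peaks was 0.348% and 0.352% in control spleen libraries, and 0.336%, 0.336%, 0.342% and 0.331% in Vps34-deficient spleen. It was 0.305% and 0.3103% in control lung libraries, and 0.302% and 0.3004% in Vps34-deficient lung. Controls lay above Vps34-deficient libraries in each tissue without overlap. Summed promoter peaks of the mitochondrial ribosome did the same, at 2932 to 2986 against 2825 to 2875 CPM in spleen and 2732 to 2902 against 2586 to 2666 in lung. Those of the citric acid cycle did so in lung alone. Those of other assembly factors and of biogenesis regulators overlapped in both tissues. The summed myeloid markers were also higher in controls without overlap, and the part of such cells in this gap was not tested. As a share of promoter counts, the spleen controls (0.655% and 0.666%) still lay above the 4 Vps34-deficient libraries (0.646% to 0.652%), while in lung the controls (0.620% and 0.639%) enclosed the Vps34-deficient libraries (0.627% and 0.633%). In single peaks, all 4 Vps34-deficient spleen libraries lay below both controls at 8 of 102 and above both at 3. The shares were 10.8% and 15.1% of all peaks and 11.3% and 8.1% of other promoter peaks. In lung both Vps34-deficient libraries lay below both controls at 23 of 102 and above both at 15. There the shares were 23.1% and 22.7% of all peaks and 26.6% and 14.4% of other promoter peaks.

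**Figure D3:**
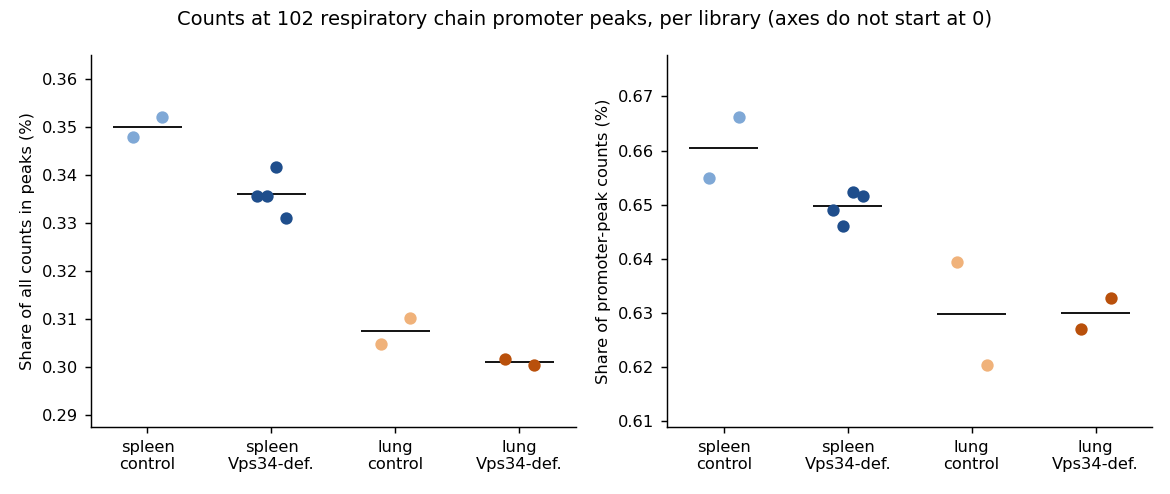
Percent of counts in the 102 respiratory chain peaks for each of the 10 libraries (points), out of all counts in peaks and out of the counts in promoter peaks, on axes that do not start at 0. Out of all counts, lung libraries (0.300% to 0.310%) lie below spleen libraries (0.331% to 0.352%), and out of promoter counts they are closer (0.620% to 0.639% against 0.646% to 0.666%).

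Ndufb9, an accessory subunit of complex I, was the only one of the 102 with an adjusted p below 0.05 over both tissues, and it did not pass the fold threshold. Its peak (chr15:58933226-58934093, shared with Tatdn1) measured 45.2 and 43.3 CPM in control spleen, 31.6, 44.2, 34.7 and 35.2 in Vps34-deficient spleen, 36.4 and 37.4 in control lung and 30.1 and 27.5 in Vps34-deficient lung. The lung groups did not overlap, and 1 of the 4 Vps34-deficient spleen libraries lay between the controls. The log2 fold change was -0.31 (SE 0.09, edgeR Benjamini-Hochberg adjusted p = 0.0285), a threshold that 9.04% of all peaks and 4.22% of other promoter peaks passed. Over the alternatives it ranged from -0.40 to -0.27, with an edgeR or DESeq2 adjusted p of 0.00472 to 0.106. The adjusted p passed 0.05 upward with the replicate block and without spleen control replicate 1, spleen control replicate 2, spleen Vps34-deficient replicate 4 or lung Vps34-deficient replicate 2.

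Ndufab1, chosen for its adjusted p after the values were seen, measured 61.5 and 59.3 CPM in control spleen, 52.3, 46.9, 48.8 and 55.5 in Vps34-deficient spleen, 65.7 and 59.8 in control lung and 48.6 and 60.5 in Vps34-deficient lung. Its spleen groups did not overlap and its lung groups did. The log2 fold change over both tissues was -0.23 (SE 0.08, edgeR Benjamini-Hochberg adjusted p = 0.053).

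The largest estimates were upward and at peaks with few counts. The second peak of Uqcr11, a small subunit of complex III, lies in an intron (chr10:80405866-80406131) and held 10 to 50 counts. It measured 1.12 and 1.79 CPM in control spleen, 0.966, 2.91, 1.82 and 3.55 in Vps34-deficient spleen, 1.09 and 1.03 in control lung and 2.66 and 2.79 in Vps34-deficient lung. The spleen groups overlapped and the lung groups did not, and the log2 fold change over both tissues was 0.94 (SE 0.34, edgeR Benjamini-Hochberg adjusted p = 0.0789). Without spleen Vps34-deficient replicate 1 it was called, at 1.08 with an edgeR adjusted p of 0.0295.

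Other peaks at the ends of their groups did not pass the test for Vps34 loss over both tissues. The lowest estimates were -0.47 at the second peak of Cox6c, -0.26 at Atp5j2, -0.24 at Ndufv1, the subunit that binds NADH, -0.21 at Ndufaf1, -0.14 at Uqcrc1 and -0.05 at Sdhc. The highest were 0.29 at the second peak of Ndufb10, 0.28 at that of Atp5l, 0.11 at Ndufaf5, 0.04 at Ndufs1 and 0.01 at Sdha. In lung alone Ndufv1 measured 18.98 and 27.97 CPM in controls and 19.6 and 14.7 in Vps34-deficient libraries. The groups overlapped. Its log2 fold change there was -0.46 (SE 0.19, edgeR Benjamini-Hochberg adjusted p = 0.171). It ranged from -0.60 to -0.11 over 20 alternatives, and was -0.59 without lung control replicate 1. That fit has 1 lung control library left, whose spread is assumed to be that of the other groups, and it called 5038 of all peaks higher and 3948 lower, against 1188 and 3632 with all libraries.

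**Figure D4:**
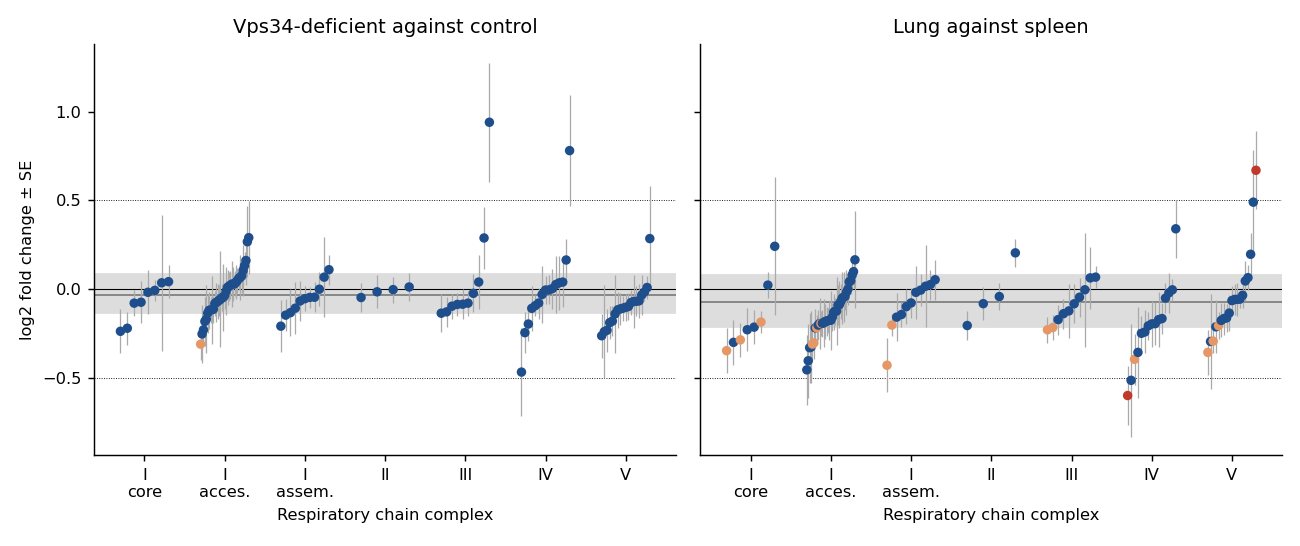
log2 fold change ± SE of each respiratory chain peak by complex, for Vps34-deficient against control and for lung against spleen, with called peaks in red, those with an adjusted p below 0.05 but a smaller change in orange and the others in blue. The grey band and line are the quartiles and median of other promoter peaks (-0.04 and -0.07), dotted lines mark -0.5 and 0.5, and most points of the tissue comparison lie below 0.

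How the tissue of origin altered the same promoters was asked by comparing lung with spleen over both genotypes. Of the 102 peaks 1 was called higher in lung and 1 lower, where 18.4% of all peaks were called higher and 6.51% lower, and 4.93% and 2.74% of other promoter peaks. The median log2 fold change was -0.15, with 83 of 102 below 0, against -0.07 for other promoter peaks and -0.01 for all peaks. Every lung library lay below every spleen library at 11 peaks and above at 1, against 5.74% and 9.5% of all peaks and 7.34% and 3.55% of other promoter peaks. By the adjusted p alone, 16 of 102 were lower in lung and 1 was higher, where 9.53% of all peaks and 12.2% of other promoter peaks were lower. With scaling factors from promoter peaks alone the median of other promoter peaks was -0.01, that of the 102 was -0.08, and 3 were lower by the adjusted p. The 16 became 33 with library size alone, 34 without a filter on low counts, 29 with halved counts, 24 with DESeq2 and 23 with median-of-ratios scaling, each including the 16. They became 4 without spleen control replicate 2, 7 without lung Vps34-deficient replicate 2 and 7 with the replicate block. Lung was digested with collagenase before the sort, which cannot be told apart from the tissue.

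Cox7b encodes a small subunit of complex IV, and its peak (chrX:106015555-106015893, over the start, with its centre in an untranslated exon) was the one called lower in lung. It measured 7.76 and 9.202 CPM in control spleen, 6.899, 7.39, 8.34 and 8.23 in Vps34-deficient spleen, 4.36 and 5.01 in control lung and 6.15 and 5.36 in Vps34-deficient lung. Every lung library lay below every spleen library. Spleen averaged 7.97 ± 0.805 CPM (SD, n = 6 libraries) and lung 5.22 ± 0.747 (SD, n = 4 libraries). The log2 fold change was -0.60 (SE 0.17, edgeR Benjamini-Hochberg adjusted p = 0.00724). The alternatives gave -0.71 to -0.51, with an adjusted p of 0.0021 to 0.0438 in edgeR or DESeq2.

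Atp5g2 encodes a c subunit of the ATP synthase, of which the rotor ring is built. Its second peak, centred 447 bp downstream of an outer start of the gene in an untranslated exon, was the one called higher in lung. It measured 2.41 and 2.33 CPM in control spleen, 2.897, 2.55, 2.26 and 2.41 in Vps34-deficient spleen, 4.36 and 4.86 in control lung and 3.49 and 3.32 in Vps34-deficient lung. Lung lay above spleen without overlap, with the lung controls highest, and the log2 fold change was 0.67 (SE 0.22, edgeR Benjamini-Hochberg adjusted p = 0.0228). The call was lost with the replicate block and without spleen control replicate 1, spleen control replicate 2, spleen Vps34-deficient replicate 3 or lung control replicate 2, at an edgeR adjusted p of 0.0592 to 0.085. The first peak of the gene, which lies over an inner start (chr15:102670721-102671422), had an estimate of -0.18 (SE 0.10, edgeR Benjamini-Hochberg adjusted p = 0.177).

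Atp5c1, the gamma subunit that turns within the ATP synthase, had the smallest adjusted p and was chosen for it after the values were seen. Its peak (chr2:10079916-10080786, shared with Kin) measured 66.9 and 67.98 CPM in control spleen, 63.7, 68.98, 62.4 and 65.3 in Vps34-deficient spleen, 48.6 and 55.1 in control lung and 55.1 and 55.8 in Vps34-deficient lung. No lung library reached a spleen library, and the log2 fold change was -0.29 (SE 0.07, edgeR Benjamini-Hochberg adjusted p = 0.00168). The others lower by the adjusted p alone were Ndufb9, Ndufb6, Ndufs6 and Ndufa2 among accessory subunits, Ndufv2, Ndufs7 and Ndufs8 in the core of complex I, and Ndufaf7 and the second peak of Ndufaf4 among assembly factors. Uqcrh and Uqcrfs1, the Rieske iron-sulfur protein, of complex III, Cox6b1 of complex IV, and Atp5j2 and Atp5a1, the alpha subunit, of complex V were the rest. Their log2 fold changes ran from -0.43 at the second peak of Ndufaf4 to -0.19 at Ndufv2, and 7 of the 16 peaks are shared with another gene.

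By complex, the median of lung against spleen was -0.22 for the complex I core, -0.20 for complex IV (14 of 15 below 0), -0.18 for accessory subunits (30 of 35), -0.10 for complex III, -0.08 for assembly factors, -0.07 for complex V and -0.06 for complex II. The lowest estimates of the other groups were -0.46 at Ndufa11, -0.36 at Atp5j2, -0.35 at Ndufs7, -0.23 at Uqcrh and -0.21 at Sdha, the flavoprotein of complex II. The highest were 0.34 at Cox7a1, 0.24 at the second peak of Ndufv2, 0.20 at Sdhc, 0.16 at the second peak of Ndufv3, 0.07 at Uqcrc2 and 0.05 at Ndufaf3, none of which passed the test.

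Ndufa11, an accessory subunit, measured 6.81 and 8.31 CPM in control spleen, 7.31, 7.76, 8.95 and 8.37 in Vps34-deficient spleen, 8.29 and 6.26 in control lung and 6.15 and 3.003 in Vps34-deficient lung at its peak over the start. The tissues overlapped, and lung Vps34-deficient replicate 2 was the lowest library. The tissue estimate did not pass the test (edgeR Benjamini-Hochberg adjusted p = 0.088), but was called with library size alone (-0.52) and without a filter on low counts (-0.52). It was -0.62 without spleen control replicate 1 and -0.60 without lung control replicate 1. Over 20 alternatives it ranged from -0.62 to -0.21.

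**Figure D5:**
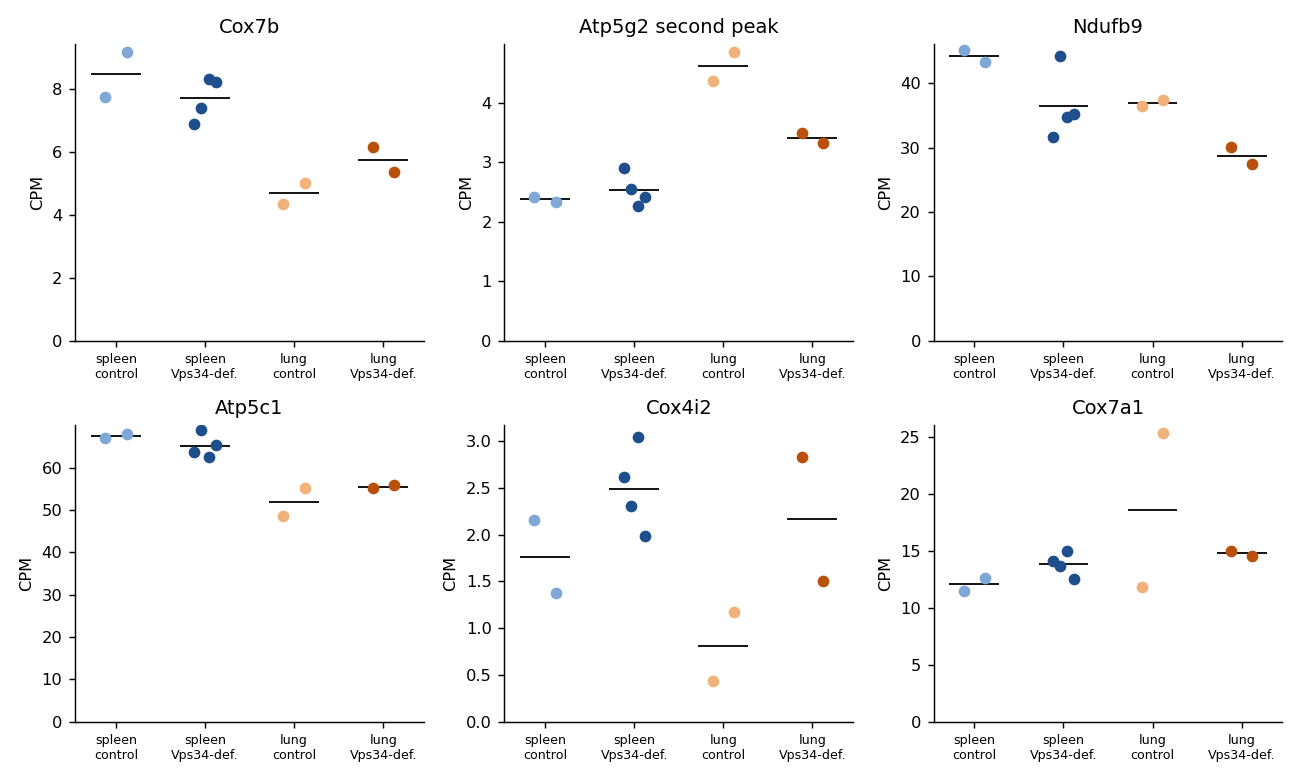
CPM of 6 respiratory chain peaks in each of the 10 libraries (points) with group means (lines). Cox7b and Atp5c1 are lower in all 4 lung libraries, the second peak of Atp5g2 is higher in all 4, Ndufb9 is lowest in Vps34-deficient lung, and at Cox4i2 and Cox7a1 the groups overlap in spleen.

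Several subunits have isoforms known from particular tissues. No peak met the rule at Cox6a2 and Cox8b, known from heart and skeletal muscle, at Cox7b2 and Cox8c, known from testis, or at Atp5g1 and Ndufa6. A peak 1279 bp from the start of Cox8b, outside the rule, had a mean of 3.32 CPM and a lung against spleen log2 fold change of 1.35. Cox4i2, an isoform of subunit 4 of complex IV known from lung and hypoxia, had a peak (chr2:152753960-152754293) of 4 to 70 counts. It measured 2.15 and 1.37 CPM in control spleen, 2.62, 2.303, 3.04 and 1.99 in Vps34-deficient spleen, 0.436 and 1.18 in control lung and 2.83 and 1.501 in Vps34-deficient lung. The spleen groups overlapped and the lung groups did not. The log2 fold change with Vps34 loss over both tissues was 0.78 (SE 0.31, edgeR Benjamini-Hochberg adjusted p = 0.119).

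Cox7a1, an isoform of heart and skeletal muscle, measured 11.5 and 12.6 CPM in control spleen, 14.1, 13.7, 14.9 and 12.5 in Vps34-deficient spleen, 11.8 and 25.3 in control lung and 14.97 and 14.6 in Vps34-deficient lung at its peak (chr7:30183863-30184432). Lung control replicate 2 was the highest library, and the genotypes overlapped in both tissues. The log2 fold change with Vps34 loss in lung ranged from -0.67 to 0.36 over 20 alternatives, of which 1 lay above 0. It was -0.67 without lung control replicate 1, which leaves the library at 25.3 CPM as the only lung control and takes the spread from other groups. Cox6b2, known from testis, had a peak of 1732 bp with 11.6 CPM per kb and a change with Vps34 loss over both tissues of 0.16 (SE 0.12, edgeR Benjamini-Hochberg adjusted p = 0.43). Ndufa4l2, known from hypoxia, measured 4.11 to 7.38 CPM, Atp5g3, another c subunit gene, 22.9 to 32.2 CPM and the first peak of Atp5g2 20.4 to 27.9 CPM over the 10 libraries.

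The X-linked genes were Cox7b, Ndufa1 and Ndufb11. Chromosome Y signal was above 40 CPM in 5 libraries and below in 5, with as many of each kind in every group. In spleen, Cox7b ranged from 7.39 to 8.23 CPM in libraries with high signal and from 6.899 to 9.202 in the others, Ndufa1 from 11.99 to 12.7 and 11.3 to 16.3, and Ndufb11 from 43.7 to 48.97 and 42.8 to 45.9. In lung the ranges were 4.36 to 5.36 and 5.01 to 6.15 for Cox7b, 8.94 to 13.5 and 10.7 to 10.98 for Ndufa1, and 45.5 to 51.04 and 44.3 to 48.2 for Ndufb11. The ranges overlapped at each gene in each tissue.

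Promoter peaks of related genes were read from the same fits. In lung against spleen, 18.4% of all peaks were called higher and 6.51% lower, and 4.93% and 2.74% of other promoter peaks. By the adjusted p alone, 9.53% of all peaks and 12.2% of other promoter peaks were lower in lung. With Vps34 loss over both tissues 7.57% of all peaks and 2.27% of other promoter peaks were called. By the adjusted p alone these were 9.04% and 4.22%. Of 51 peaks at 44 genes of assembly factors outside the rule and of cytochrome c, 1 was called higher with Vps34 loss over both tissues, a lesser peak of Cox19, and 0 between tissues. By the edgeR adjusted p alone, 2 of them were lower with Vps34 loss, Cox14 (-0.30) and Lyrm7 (-0.29), and 9 were lower in lung, among them Sdhaf1 (-0.40), Timmdc1 (-0.29) and Bcs1l (-0.29). Of 20 peaks at 18 genes of the citric acid cycle, 0 were called with Vps34 loss, and between tissues 1 was higher, a lesser peak of Dlat, and 1 lower, at Idh3b, a subunit of isocitrate dehydrogenase (-0.58, edgeR Benjamini-Hochberg adjusted p = 0.00549). Of 92 peaks at 77 genes of the mitochondrial ribosome, 0 were called by edgeR, and between tissues 11 were lower and 1 higher by the adjusted p alone. Of 30 peaks at 19 genes of regulators of mitochondrial biogenesis, 0 were called with Vps34 loss and 3 were higher in lung, the lesser of the peaks at each of Nrf1, Gabpb2 and Ppargc1a. By the edgeR adjusted p alone, 4 of these 30 were higher and 3 lower in lung. Tfam, which packages mitochondrial DNA, had a tissue estimate of -0.23 (edgeR Benjamini-Hochberg adjusted p = 0.0119), and Esrra, which encodes an estrogen-related receptor, 0.01. The median of lung against spleen was -0.15 for assembly and cytochrome c genes, -0.12 for the citric acid cycle, -0.13 for the mitochondrial ribosome and -0.06 for the regulators. With Vps34 loss over both tissues it was -0.04, -0.09, -0.09 and -0.08 in that order.

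Among the 102 peaks, the median of lung against spleen was -0.17 for the 25 with the ERR string and -0.13 for the 77 without it. For the 16 with the YY1 string it was -0.17, with 7 lower by the adjusted p, and for the 86 without it -0.14, with 9. Peaks with the NRF1 string had a median of -0.07, with 0 of 13 lower by the edgeR adjusted p, against -0.16 without it, and peaks with the SP/KLF string -0.13, with 0 of 17, against -0.17. The counts were 4 of 25 for ERR, 6 of 32 for ETS, 6 of 41 for CCAAT, 1 of 7 for CRE and 1 of 11 for the E-box, with medians of -0.15 against -0.15 for ETS, -0.14 against -0.17 for CCAAT, -0.16 against -0.14 for CRE and -0.08 against -0.16 for the E-box. These counts were not tested.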

How the data were processed

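The authors deposited a table of counts of ATAC-seq reads per merged peak, without normalization. By the study's methods, reads were trimmed, aligned with BWA, freed of duplicates, shifted for Tn5, limited to nucleosome-free fragments, and peaks of each sample were called with MACS2 and merged where at least 50% of replicates held them. The submitters' processing notes name mm10/GRCm38, cutadapt 1.9, Picard 1.65 and MACS2 2.1.0.20150603, while the methods name an older build. Of the annotated GRCm38 starts, 51.3% lay in a peak and 1.98% to 2.82% did so after shifting them. The methods give the spleen numbers per genotype the other way round, and the labels were followed.

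An edgeR 4.0.16 quasi-likelihood fit (R 4.3.3, TMM scaling, filterByExpr) of the 4 groups covered all 97109 tested peaks. Benjamini-Hochberg adjustment ran over all of them. It gave the effects in each tissue and their difference. The averaged effects came from a second fit of the same peaks, with tissue and genotype as additive terms. They do not weight tissues or genotypes equally. This second fit was tested on simulated data. DESeq2 1.42.0, other scalings and filters, halved counts, a chromosome Y covariate, a replicate block and leaving out each library were the alternatives. Searching 600 bases and a block for the replicate number within genotype were chosen after seeing the data. Depth was 9405823 to 22439699 counts per library, not halved, and the biological coefficient of variation was 17.79%. Peaks named were those called, the highest and lowest of each complex by level per length and by each averaged effect, tissue-restricted isoforms and X-linked genes. Members and lists were chosen with earlier results of these data known. Promoter sequences of 17 symbols were not used here. Some items that the naming rule covers are not reported here.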

Additional observations from a re-analysis of the deposited data

Results flagged for a closer look

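In the 4 Vps34-deficient spleen libraries, 5 of 52 sets of values examined had 1 library whose gap to the nearest other as a part of the group's range exceeded Dixon's 95% critical value, where chance gives about 1 in 20. The library apart stood at 68.02 CPM at Atp5b, 64.97 at Ndufaf8, 1.92 at the second peak of Cox6c, 6.24 at that of Ndufb10 and 21.7 at Ndufv1. The 4 libraries measured 68.02, 71.4, 71.2 and 70.9 CPM at Atp5b, 56.6, 57.7, 56.7 and 64.97 at Ndufaf8, 3.59, 3.76, 3.65 and 1.92 at the second peak of Cox6c, 4.42, 4.42, 4.08 and 6.24 at that of Ndufb10 and 21.7, 24.5, 24.4 and 24.5 at Ndufv1.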

How the results depend on the processing

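Of the alternative values of the counts of called peaks and of the medians, 286 stayed on the same side or within the replicate spread and 36 moved. The medians of Vps34 loss in spleen (-0.114 to -0.0292) and over both tissues (-0.0978 to -0.0173) stayed below 0 in every alternative. With scaling factors from promoter peaks the median was 0.0196 for Vps34 loss in lung and -0.0823 for lung against spleen, and without a filter on low counts the latter was -0.22. The number lower in lung was 2 with library size alone, 2 without a filter and 16 without a fold threshold, where 1 peak was lower with Vps34 loss over both tissues. Among peaks over the 5' end of their gene 0 were higher in lung. The median difference of the genotype effect between tissues was 0.10 with at least 20 counts in every library and 0.0886 with halved counts. The causes were not tested.

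Leaving out each library in turn gave 0 to 2 peaks lower with Vps34 loss in lung, where the 2 were Ndufv1 and Cox7a1 without lung control replicate 1. The median in lung ranged from -0.0555 to 0.0617. For Vps34 loss over both tissues 0 to 1 peak was higher, the second peak of Uqcr11 without spleen Vps34-deficient replicate 1. Between tissues 0 to 1 peak was higher and 1 to 3 were lower, with Cox6b1 and the second peak of Ndufaf4 added without spleen Vps34-deficient replicate 1, and the median ranged from -0.22 to -0.11. The number lower in lung was 2 without spleen control replicate 1, spleen Vps34-deficient replicate 2, lung control replicate 1 or lung Vps34-deficient replicate 1. The 16 lower in lung by the adjusted p became 4 without spleen control replicate 2, 7 without lung Vps34-deficient replicate 2 and 32 without spleen Vps34-deficient replicate 1, and 7 with the replicate block, of which 6 were shared with the 16. The median difference between tissues ranged from -0.00222 to 0.16. Where a control library or a lung library is left out, the lone library of its group is assumed to vary like the other groups.

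With the replicate number as a block, 0 peaks were called higher and 1 lower in lung, with a median of -0.14, and no other call changed. Same-numbered libraries correlated at -0.10 to 0.06 in their deviations from group means. The labels do not say whether same-numbered libraries of 1 genotype share an animal, and their chromosome Y signal was 56.9 CPM in spleen and 67.6 in lung for control replicate 1, 7.03 and 12.8 for control replicate 2, 9.88 and 21.4 for Vps34-deficient replicate 1 and 64.8 and 63.4 for Vps34-deficient replicate 2, on the same side of 40 CPM in all 4 pairs. With the replicate block within genotype, added after seeing the data and fitted for the tissue effect and its difference between genotypes, 0 peaks were called higher and 1 lower in lung, the median was -0.14 and 8 were lower by the edgeR adjusted p, of which 7 were shared with the 16. The second peak of Atp5g2, called higher without a block, had 0.65 there (edgeR adjusted p = 0.0918). At peaks under 20 CPM the 95% interval over both tissues lay within the fold threshold for 22 of 39.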
